A study of Mus musculus with 7 samples.

Results

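RelA binding to chromatin was compared between dendritic cells without and with RelB after 1 h of lipopolysaccharide (LPS), over all 93611 regions of the table. One chromatin immunoprecipitation (ChIP-seq) library with a RelA antibody came from RelBko cells and one from wild-type (WT) cells, and input DNA of WT cells gave the background. Both ChIP groups were bone marrow-derived dendritic cells (BMDCs) of strain C57BL/6, grown from marrow with 20 ng/ml GM-CSF plus 10 ng/ml IL-4 and treated with LPS at 10 ng/mL for 1 h. The labels give neither the RelBko allele nor the age of the mice, and give no LPS treatment or time for the input. The series also holds RelB ChIP libraries of both genotypes at 0 h and 1 h, which are used here only to describe the regions. With 1 library per genotype there was no replicate check and no test, so each difference below is between 2 libraries, and intervals cover counting error only.

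RelA is an NF-kB subunit with a transactivation domain that is held in the cytoplasm by IkB proteins and enters the nucleus within minutes of Toll-like receptor signalling. RelB is a related subunit, best known as the partner of p52 in the noncanonical pathway and needed for the development and maturation of some dendritic cells. Both bind as dimers to kB sites, and the series asks how loss of RelB affects the binding of RelA.

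The RelBko RelA library held 23956299 reads and the WT RelA library 17590435, and 37.2% and 37.9% of them fell in the regions, against 3.52% of 13188833 input reads. All 8 dendritic cell markers had RelA enrichment in both libraries, with summed signals of 604 RPKM in RelBko and 584 RPKM in WT. Every myeloid, neutrophil and T and NK cell marker with a region was enriched in both libraries too. Of 3 B cell markers with a region 2 were enriched in RelBko and 3 in WT, and of 3 erythroid and mast cell markers 2 in each. Of all 18214 genes with a region within 100 kb, 17395 were enriched in at least 1 library at their strongest region. Enrichment thus does not set the markers apart. The 4 myeloid markers summed to 102 RPKM in RelBko and 113 RPKM in WT. Markers of neutrophils (4 of 5 with a region) summed to 37.1 RPKM in RelBko and 46.1 RPKM in WT, those of T and NK cells (4 of 4) to 44.9 RPKM in RelBko and 61.2 RPKM in WT, those of B cells (3 of 4) to 21.8 RPKM in RelBko and 21.0 RPKM in WT, and those of erythroid and mast cells (3 of 4) to 18.7 RPKM in RelBko and 17.6 RPKM in WT. The markers left out of these counts had no assigned region within 100 kb. RelA signal at a marker does not measure how many cells of a type were present, and the part of other cell types in the results below was not tested. The Relb promoter region held RelA reads in RelBko cells, 643 against 595 in WT cells, so these reads do not show the deletion itself. The RelB antibody signal did differ by genotype. At 1 h, 4.62% of RelB library reads in RelBko and 42.4% in WT fell in the regions, with 5957 and 76450 regions enriched over input.

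The results turn on the promoters below, each printed with 250 bases before and 50 bases after a transcription start site (TSS), from RefSeq on GRCm38.p6 and 5′ to 3′ on the strand of the gene. Capitals mark matches to the kB motif GGGNNNTTCC on either strand, where N is any base. RefSeq gave 2 such windows for Tnfaip3 and 3 for Nfkb2. For these genes the window with the most motif matches was printed, so their matches partly reflect that choice. Nfkbia (IkB alpha, chr12:55492598-55492897, minus strand), Tnfaip3 (the ubiquitin-editing enzyme A20, chr10:19015361-19015660, minus strand) and Nfkb2 (p100, the precursor of p52, chr19:46304487-46304786, plus strand) were strongly bound by RelA in both genotypes. Pgk1 (the glycolytic enzyme phosphoglycerate kinase, chrX:106186850-106187149, plus strand) was the one promoter region with a mean of 20 RPKM or more that was called higher in RelBko.
Nfkbia: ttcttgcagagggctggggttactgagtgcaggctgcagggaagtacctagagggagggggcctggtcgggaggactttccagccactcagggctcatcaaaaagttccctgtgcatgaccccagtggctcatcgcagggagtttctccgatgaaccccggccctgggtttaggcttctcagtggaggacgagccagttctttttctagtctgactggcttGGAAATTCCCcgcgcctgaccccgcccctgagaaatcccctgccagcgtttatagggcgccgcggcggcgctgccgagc
Tnfaip3: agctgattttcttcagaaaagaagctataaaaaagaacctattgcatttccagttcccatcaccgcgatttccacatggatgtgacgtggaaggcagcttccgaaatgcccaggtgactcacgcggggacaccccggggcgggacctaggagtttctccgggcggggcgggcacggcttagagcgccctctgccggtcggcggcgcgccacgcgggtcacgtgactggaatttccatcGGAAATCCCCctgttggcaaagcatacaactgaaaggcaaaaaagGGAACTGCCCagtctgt
Nfkb2: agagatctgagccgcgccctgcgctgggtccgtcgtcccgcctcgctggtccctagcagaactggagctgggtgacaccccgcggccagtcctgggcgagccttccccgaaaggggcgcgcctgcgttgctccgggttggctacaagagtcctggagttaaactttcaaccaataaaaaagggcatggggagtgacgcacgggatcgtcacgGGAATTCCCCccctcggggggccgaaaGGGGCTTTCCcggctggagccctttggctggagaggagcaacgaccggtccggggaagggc
Pgk1: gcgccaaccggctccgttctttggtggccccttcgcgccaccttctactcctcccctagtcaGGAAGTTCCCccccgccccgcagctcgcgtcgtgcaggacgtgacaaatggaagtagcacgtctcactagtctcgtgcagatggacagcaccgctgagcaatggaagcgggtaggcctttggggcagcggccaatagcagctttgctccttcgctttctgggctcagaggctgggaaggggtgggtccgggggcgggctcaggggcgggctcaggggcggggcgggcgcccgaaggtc
In the printed windows the motif began 29 bases before the start in Nfkbia (position -29) and at -12 and 34 in Tnfaip3. It began at -38 and -11 in Nfkb2 and at -188 in Pgk1. A match describes these letters and is not evidence of a bound site.

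RelA signal at the promoters of the NF-kB genes themselves was close in both libraries. Signal is given in RPKM, the reads in a region divided by its length and by the size of the library, and coordinates of regions are in mm9, counted from 1. The Nfkbia promoter region (chromosome 12, 56593546 to 56593910) had 191 RPKM in RelBko and 190 RPKM in WT, a ratio of reads of 1.01 (exact 95% interval 0.936 to 1.09). The Tnfaip3 promoter region (chromosome 10, 18735071 to 18735474) had 141 RPKM in RelBko and 131 RPKM in WT, a ratio of 1.08 (0.991 to 1.17). In both genes the interval held a ratio of 1.

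Relb itself (chromosome 7, 20214655 to 20215034) had 70.6 RPKM in RelBko and 89.0 RPKM in WT, a ratio of 0.794 (0.709 to 0.889). Nfkb1, which encodes p105 and p50 (chromosome 3, 135354329 to 135354678), had 72.6 RPKM in RelBko and 91.9 RPKM in WT, a ratio of 0.790 (0.704 to 0.887). Both intervals lay below 1. Nfkb2 (chromosome 19, 46379024 to 46379378) had 130 RPKM in RelBko and 145 RPKM in WT, a ratio of 0.896 (0.820 to 0.980). Rel, which encodes c-Rel, had 104 RPKM in RelBko and 112 RPKM in WT, and Rela had 59.9 RPKM in RelBko and 59.6 RPKM in WT. None of the 5 subunit genes differed by 2-fold, and 4 of 5 lay below a log2 ratio of 0 (median -0.16). The interval of the ratio at Rel held 1 (0.863 to 1.00). Over all 63 compared regions of these genes the median log2 ratio was 0.00. The median of the 5 strongest regions was also 0.00 when the libraries were scaled on regions without enrichment, a scaling that moves every log2 ratio up by 0.16.

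Across the 80885 regions with RelA enrichment in at least 1 of the libraries, the binding differed by less than 2-fold at nearly all. Enrichment required 2 RPKM and 2-fold over input. It was met by 71083 regions in RelBko and 76741 in WT, of which 66939 were shared, 4144 were enriched in RelBko alone and 9802 in WT alone, and 12726 regions were enriched in neither. A region was called when the log2 ratio of RelBko to WT, with 0.5 RPKM added to both, reached 2-fold, a scale that understates differences of weak regions. At this threshold 3994 regions (4.94%) were lower and 1055 (1.30%) higher in RelBko, and the median log2 ratio was -0.06. The balance depended on scaling, since scaling on regions without enrichment gave 2546 lower and 2013 higher regions and a median of 0.10. The exact 95% interval of the ratio of reads excluded 1 in 3944 of the lower and 1019 of the higher regions. The intervals rest on the same reads as the calls, so these counts are not separate support for them.

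Most called regions were weak. Typical signal of the lower regions was 1.36 RPKM (median, 12 reads) in RelBko and 4.21 RPKM (27 reads) in WT, and higher regions had 4.45 RPKM (37 reads) in RelBko and 1.56 RPKM (10 reads) in WT. Among regions with a mean RelA signal of 2 to 5 RPKM, 8.02% were lower and 1.90% higher in RelBko. At 10 to 20 RPKM these shares were 1.08% and 0.504%, and at 20 to 50 RPKM 0.195% and 0.136%. Regions under 2 RPKM, of which 25.2% were lower and 6.15% higher, had to reach 2 RPKM in one library to be compared and so are not read further. They remain in the totals and in every share given without a limit on signal. At a mean of 20 RPKM or more, 23 of 14014 regions were lower and 17 higher, with a median log2 ratio of 0.02. At 50 RPKM or more, the middle 90% of 2217 regions ran from -0.31 to 0.31 and 1 was called. That region, assigned to Fam172a, had 555 RPKM in RelBko and 238 RPKM in WT, and also 78.5 RPKM in the input and 2803 RPKM in the RelBko RelB library at 1 h.

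**Figure D1:**
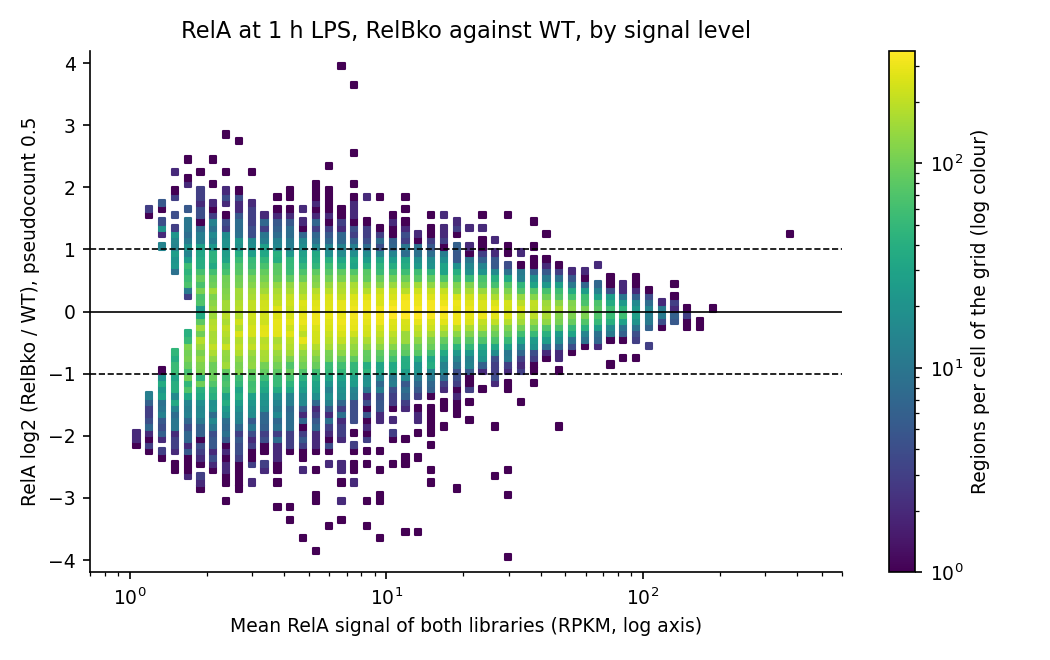
Log2 ratio of RelA signal (RelBko over WT, 0.5 RPKM added) against the mean of both libraries (RPKM, log axis) for the 80885 compared regions, coloured by the number of regions per cell of the grid, with dashed lines at 2-fold and log2 ratios beyond 4 drawn at 4. The spread narrows with signal, and at 50 RPKM or more 1 region lies outside the lines.

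Promoter regions differed least. Of 10037 compared promoter regions 0.966% were lower and 0.458% higher in RelBko, against 5.52% and 1.48% of 35187 intron regions and 5.74% and 1.35% of 30952 intergenic regions. Promoters made up 2.43% of the lower regions (95% Wilson interval 2.0 to 2.95%) and 4.36% of the higher ones (3.29 to 5.77%), against 12.4% of those compared. They were also stronger, at 13.2 RPKM (median) in RelBko and 12.2 RPKM in WT, against 6.19 and 6.69 RPKM in introns and 5.85 and 6.44 RPKM between genes. At a matched mean of 10 to 20 RPKM the promoters still held fewer called regions, 0.317% lower and 0.173% higher, against 1.10% and 0.445% of introns and 1.57% and 0.80% of intergenic regions. In the same bin their median log2 ratio was 0.12, against -0.02 in introns and -0.03 between genes. Near the strongest signals the classes met, with medians at 50 to 100 RPKM of -0.01 in promoters, 0.01 in introns and 0.02 between genes.

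Among the other classes, exons (1446 regions) were lower in 2.7% and higher in 1.59%, and 5′ UTRs (866 regions) lower in 1.04% and higher in 1.27%. In 3′ UTRs 5.04% of 834 regions were lower, and at transcription ends 6.05% of 1206 were lower and 2.16% higher. By distance, 0.743% of regions within 0.5 kb of a TSS were lower, 3.17% from there to 2 kb, 5.0% to 10 kb, 5.67% to 50 kb, 6.5% to 100 kb and 7.28% beyond it. Median RelA signal fell along the same steps, to 4.72 RPKM in RelBko and 5.25 RPKM in WT beyond 100 kb, so distance and signal level moved together.

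**Figure D2:**
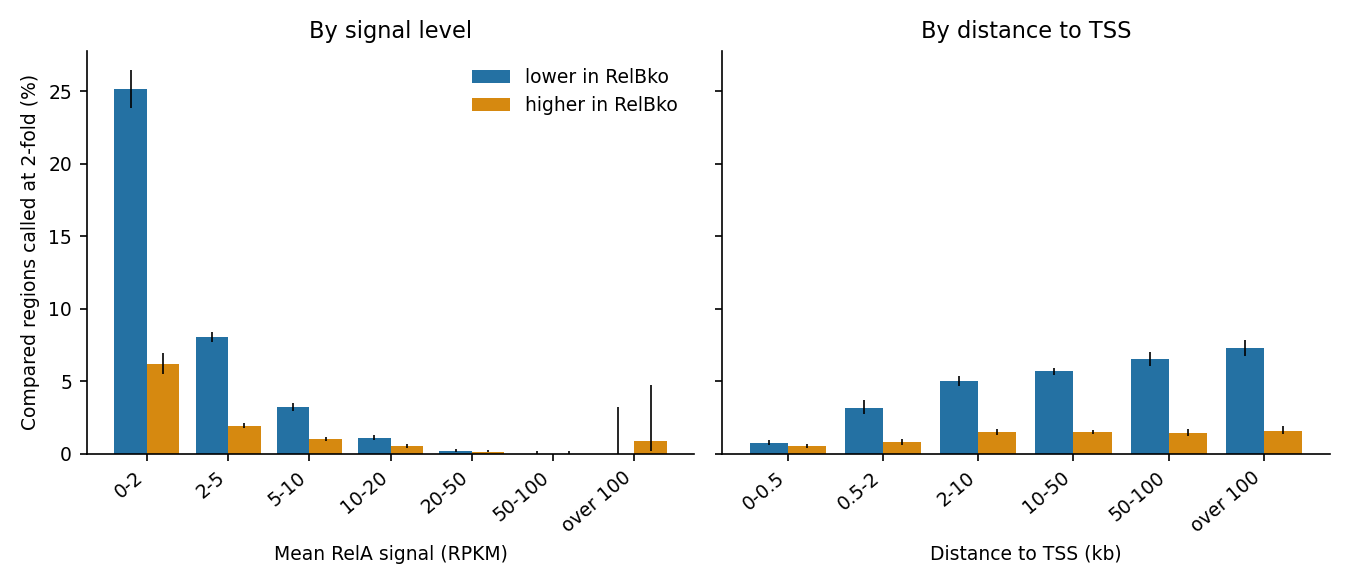
Percent of compared regions called lower (blue) or higher (orange) in RelBko at 2-fold, by mean RelA signal in RPKM (left) and by distance to the TSS in kb (right), with 95% Wilson intervals as bars. The share lower is 8.02% at 2 to 5 RPKM and 0.195% at 20 to 50 RPKM, and it is 0.743% within 0.5 kb of a TSS and 7.28% beyond 100 kb. Regions of the weakest bin had to reach 2 RPKM in one library to be compared, so that bin is not read.

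The length of a region was related to the library in which it was strongest and to its call. In all, 5 lengths recurred in 1810 to 7213 regions each, and the next most frequent length had 852 regions. The 7213 regions of 338 bp had their highest median signal in the WT RelA library, and 1192 of the 6739 compared were lower in RelBko and 14 higher. The 4748 regions of 328 bp were highest in the RelBko RelA library, and 5 of the 4155 compared were lower and 506 higher. Regions of 308 bp and 314 bp, highest in the WT RelB libraries at 0 h and 1 h, were lower in 414 and higher in 56 of 5719 compared. The 1810 regions of 170 bp were lower in 21 and higher in 23 cases. Without these 5 lengths 2362 of 62797 regions were lower and 456 higher. The part of the choice of regions in the calls was not tested.

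RelB occupancy in WT cells, which was not used for the calls, differed between the called groups. At a mean RelA signal of 5 RPKM or more, the 836 regions lower in RelBko had median RelB signals in WT cells of 16.8 RPKM after LPS and 11.6 RPKM before it, against 13.4 and 11.4 RPKM at the 49452 regions within 2-fold. The 298 regions higher in RelBko had 6.14 RPKM of RelB after LPS and 3.11 RPKM before it. The call itself selects regions of low RelA in WT cells, with medians of 11.3 RPKM in RelBko and 4.49 RPKM in WT at the higher regions, 3.95 RPKM in RelBko and 10.5 RPKM in WT at the lower regions, and 12.5 RPKM in both within 2-fold. These RelB levels were not matched for RelA in WT cells, so their order is a description. Over all compared regions, weak ones included, the lower regions had less RelB after LPS (4.37 RPKM) than those within 2-fold (8.1 RPKM). There the share lower fell with RelB, from 12.1% at up to 2 RPKM to 0.599% over 100 RPKM. At a mean RelA of 5 RPKM or more, the median log2 ratio of RelB at 1 h to 0 h was 0.86 at the higher regions. It was 0.32 at the lower regions and 0.18 at those within 2-fold. RelB was at least 2-fold higher at 1 h in 45.3% of the regions higher in RelBko, 17.2% of those lower and 10.2% of those within 2-fold. Without the 5 frequent lengths these shares were 46.6%, 18% and 9.86%.

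Within bins of RelA signal from 5 to 50 RPKM, the share lower was largest where RelB was highest. Among regions with a mean of 5 to 10 RPKM of RelA, the regions were split into 3 equal groups by RelB at 1 h. The group with the highest RelB was lower in RelBko in 6.45% and higher in 9 of 6570 regions, against 2.01% lower and 128 of 6569 higher in the group with the lowest RelB. In the highest group RelA had medians of 7.31 RPKM in RelBko and 8.30 RPKM in WT. In the lowest group these were 6.23 RPKM in RelBko and 6.34 RPKM in WT. The groups were thus not matched for RelA in WT cells, on which the call rests, and their order is a description. At 10 to 20 RPKM the shares lower were 2.69% in the highest group and 0.302% in the lowest. The middle groups, with 1.14% and 0.249% lower, did not lie between the others. At 50 RPKM or more no group held a lower region. Sorted by the change of RelB with LPS, regions with 10 RPKM or more of RelA had a median log2 ratio of -0.15 where RelB was at least 2-fold lower at 1 h (131 regions) and of 0.26 where it was more than 4-fold higher (481 regions). Across all 30878 such regions of these libraries the 2 log2 ratios correlated weakly (Pearson's r 0.13, Spearman's rho 0.11). These are descriptions across regions, which are not replicates.

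**Figure D3:**
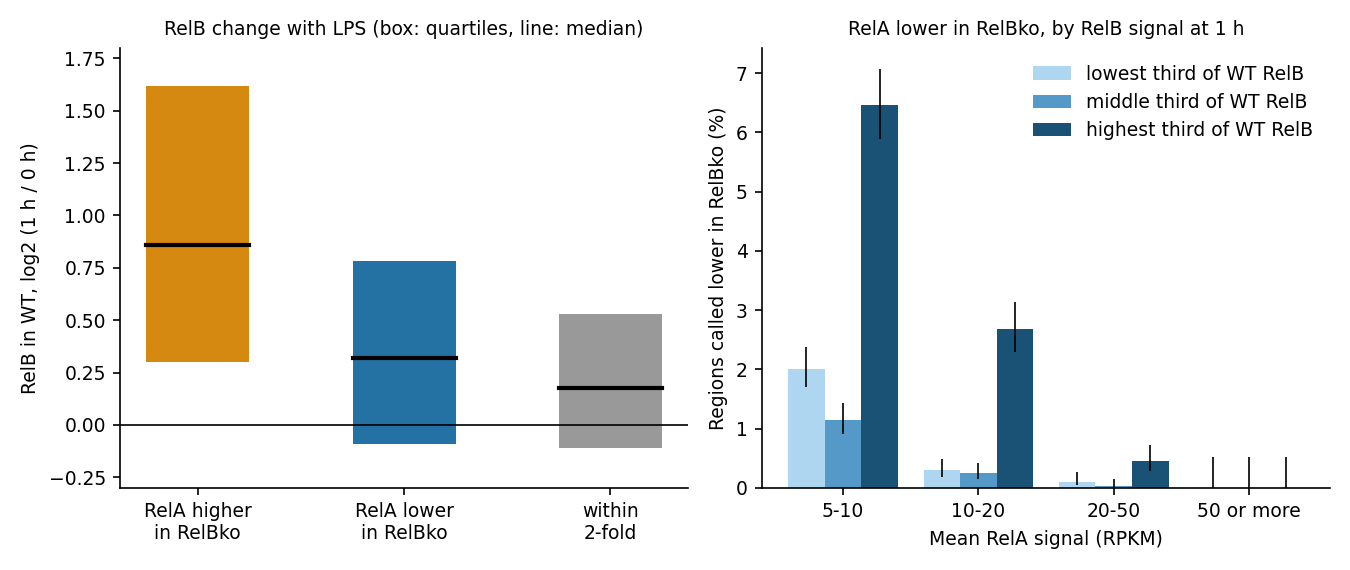
Left, log2 ratio of RelB signal in WT cells (1 h over 0 h of LPS) at regions called higher, lower or within 2-fold for RelA in RelBko, with boxes from the 25th to the 75th percentile and a line at the median (mean RelA of 5 RPKM or more). Right, percent of regions called lower in RelBko by mean RelA signal (RPKM) and by 3 equal groups of WT RelB signal at 1 h, with 95% Wilson intervals, where the highest group reaches 6.45% at 5 to 10 RPKM.

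Next to a single exon region of Zc3h13, the lowest log2 ratios among regions with a mean of 20 RPKM or more lay in Samsn1, which encodes an adaptor protein of lymphoid and myeloid cells. In all, 4 neighbouring intron regions on chromosome 16 (75877443 to 75896804) were all lower in RelBko. The region 12899 bp after the TSS had 6.85 RPKM in RelBko and 54.9 RPKM in WT (63 and 371 reads), a ratio of 0.125 (0.0939 to 0.163). The next, at 19046 bp, had 6.91 RPKM in RelBko and 45.1 RPKM in WT, and the one at 22771 bp had 8.35 RPKM in RelBko and 50.9 RPKM in WT. The last, at 31895 bp, kept more signal, with 21.3 RPKM in RelBko and 77.5 RPKM in WT, a ratio of 0.275 (0.230 to 0.327). Together these 4 regions had 43.4 RPKM in RelBko and 228 RPKM in WT. The other regions of the locus were within 2-fold, among them the promoter (21.8 RPKM in RelBko and 19.6 RPKM in WT) and the strongest upstream region (62.6 RPKM in RelBko and 69.2 RPKM in WT). The promoter of the same gene thus did not share the difference. The 4 regions held 17.7 to 62.9 RPKM of RelB in WT cells after LPS and 4.31 to 33.9 RPKM before it, and in RelBko cells the RelB antibody gave 3.07 to 6.06 RPKM at 1 h.

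Samsn1 supplied 4 of the 23 lower regions with a mean of 20 RPKM or more. Others were chosen after their values were seen. A pair of intron regions of Ido2, which like Ido1 encodes a tryptophan-degrading enzyme of tolerogenic dendritic cells, had 17.6 and 17.3 RPKM in RelBko and 39.5 and 37.2 RPKM in WT, and both lay within 2-fold when the libraries were scaled on regions without enrichment (log2 ratios of -0.99 and -0.92). The neighbouring Ido1 promoter region had 2.20 RPKM in RelBko and 5.98 RPKM in WT. The Cd63 promoter, the start of a tetraspanin gene of endosomes, had 15.5 RPKM in RelBko and 36.1 RPKM in WT, and was the one promoter among the 23. An intron region of Hdac7, a class II histone deacetylase gene, had 10.6 RPKM in RelBko and 39.9 RPKM in WT. A region near Mfge8, which encodes a protein that tags apoptotic cells for uptake, had 12.2 RPKM in RelBko and 29.3 RPKM in WT. Of the 23 lower regions, all at 20 to 50 RPKM, 14 lay in introns and 7 between genes. Of all 11797 compared regions at that level, 4724 lay in introns and 4059 between genes. The examples named here do not stand for a gene group.

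By fold alone, the 10 genes with the lowest ratios among called regions within 100 kb of a TSS, with 10 RPKM or more in one library, had 0.237 to 1.74 RPKM in RelBko and 10.2 to 56.5 RPKM in WT. The extreme was a 168 bp region in an exon of Zc3h13, a gene of the RNA adenosine methylation machinery, with 1 read in RelBko (0.249 RPKM) and 167 reads in WT (56.5 RPKM). The RelB libraries had at most 3.97 RPKM there. Regions near Abhd2 (0.237 RPKM in RelBko, 10.2 RPKM in WT) and Dmbt1, a scavenger glycoprotein gene (0.988 RPKM in RelBko, 17.8 RPKM in WT), had strong RelB in WT cells at 1 h, 41.5 and 56.4 RPKM. An exon region of Rps6, a ribosomal protein gene, had 1.33 RPKM in RelBko and 21.4 RPKM in WT, with 3.47 RPKM of RelB. An intron region of Nfatc2, a calcium-regulated transcription factor gene, had 1.40 RPKM in RelBko and 15.4 RPKM in WT, with 32.1 RPKM of RelB after LPS and 6.05 RPKM before it. The others were Meis3, Cdc14a, Jcad, Eif4a2 and Igsf23. The regions of Meis3 and Igsf23 lay on chromosome 7 within 10 Mb of the Relb promoter. None of the 10 regions was a promoter, 4 had one of the frequent lengths, and RelB in WT at 1 h ranged from 0.419 to 56.4 RPKM (median 29.9 RPKM).

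In the other direction the 10 genes had 11.7 to 19.3 RPKM in RelBko and 0.347 to 5.30 RPKM in WT. An intron region assigned to Pdcd4, which encodes an inhibitor of translation, had 13.1 RPKM in RelBko (103 reads) and 0.347 RPKM in WT, a ratio of 37.8 (10.2 to 316). A region at the end of Opa3, a mitochondrial protein gene, had 14.5 RPKM in RelBko and 0.693 RPKM in WT. Both of these were 328 bp long, the length at which calls ran toward higher. A region in an exon of Serpinb9b, a serpin gene, had 11.7 RPKM in RelBko and 2.50 RPKM in WT, with RelB at 2.9 RPKM after LPS and 0.392 RPKM before it. Dpf1, a chromatin remodelling subunit gene, had 19.3 RPKM in RelBko and 5.07 RPKM in WT at an intron region. Crxos, 6530402F18Rik, Bcas3, Zfhx3, Jade2 and Mir6934 completed the 10. The regions of Opa3, Crxos and Dpf1 lay on chromosome 7 within 10 Mb of the Relb promoter, as did 656 of the 80885 compared regions. None of the 10 was a promoter, and RelB in WT was at most 5.31 RPKM at 1 h. At 6 of the 10 it was at least 2-fold above 0 h, against 3 of the 10 lower regions.

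Pgk1 differed from all of these as a strong promoter. Its region (chromosome X, 103382065 to 103382418) had 44.0 RPKM in RelBko (373 reads) and 14.9 RPKM in WT (93 reads), a ratio of 2.95 (2.34 to 3.74), with 2.14 RPKM in the input. The other strong higher regions, chosen after their values were seen, included an intron region of Jade2 (49.0 RPKM in RelBko, 22.7 RPKM in WT), a region near Ddit4, a stress-induced inhibitor of mTOR signalling (35.3 RPKM in RelBko, 15.1 RPKM in WT), and a region near Rara, the retinoic acid receptor gene (34.6 RPKM in RelBko, 13.7 RPKM in WT). Each of these had a counting interval above 1, from the same reads by which it was called.

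Genes chosen for their roles in NF-kB signalling and dendritic cell biology were almost all within 2-fold. Each gene was represented by its region of highest mean signal within 100 kb of its TSS, and over all 17395 genes 2.21% were lower and 0.575% higher in RelBko, with a median log2 ratio of 0.00. Of 284 genes of the 15 lists with a compared region, 4 were lower, 1 was higher and 263 differed by less than 1.5-fold. The 15 lists also cover housekeeping genes and genes of other cell types, which supplied the calls at Pgk1, Igll1 and Lck. As shares of these 284 genes, both counts are below but near those over all genes. The NF-kB and dendritic cell lists also had stronger regions than all genes (medians of 14.5 RPKM in RelBko and 14.2 RPKM in WT). Calls were rarer at stronger regions, and signal was not matched here.

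Among 18 NF-kB inhibitors and feedback genes none was called, 10 lay above and 8 below a log2 ratio of 0 (median 0.03). Nfkbiz, an atypical IkB gene, had 125 RPKM in RelBko and 128 RPKM in WT. Bcl3, another atypical IkB gene, had 97.2 RPKM in RelBko and 113 RPKM in WT, and Birc3, a ubiquitin ligase gene of both NF-kB pathways, had 79.9 RPKM in RelBko and 80.6 RPKM in WT. None of 11 noncanonical pathway and lymphoid chemokine genes was called (median 0.03). Their receptor Cd40 had 126 RPKM in RelBko and 124 RPKM in WT, the adaptor Traf3 had 80.6 RPKM in RelBko and 79.7 RPKM in WT, and Map3k14, the NIK kinase gene, had 42.0 RPKM in RelBko and 34.0 RPKM in WT. Over all 64 compared regions of this list 4 were higher and none lower, against 1.30% and 4.94% of all regions.

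Tnfrsf13b, the gene of the TACI receptor for B cell survival factors, held 2 of those 4. Its intron region 945 bp after the TSS (chromosome 11, 60955119 to 60955446) had 16.0 RPKM in RelBko and 5.55 RPKM in WT, a ratio of 2.89 (1.95 to 4.41). The next, at 1660 bp, had 14.6 RPKM in RelBko and 6.09 RPKM in WT, a ratio of 2.40 (1.61 to 3.67). These regions were 328 bp and 308 bp long, both among the 5 frequent lengths, and at 328 bp calls ran toward higher. Its strongest region, upstream at -18228 bp from the TSS, had 73.8 RPKM in RelBko and 52.8 RPKM in WT, a ratio of 1.40 (1.15 to 1.71). Among the 9 regions of the locus with a mean of 5 RPKM or more, 8 lay above a log2 ratio of 0 (median 0.43), and the locus summed to 365 RPKM in RelBko and 272 RPKM in WT.

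None of 33 cytokine and chemokine genes was called at its strongest region (median -0.04). Tnf had 116 RPKM in RelBko and 120 RPKM in WT, Il1a had 108 RPKM in RelBko and 114 RPKM in WT, and the region of Il12b, a subunit gene of interleukin 12, had 75.1 RPKM in RelBko and 81.9 RPKM in WT. The chemokine gene Cxcl16 had 114 RPKM in RelBko and 130 RPKM in WT. Ccl3 and Ccl4, neighbouring genes of macrophage inflammatory proteins chosen after their values were seen, had 63.7 and 28.1 RPKM in RelBko and 42.1 and 19.4 RPKM in WT. For Il6 the strongest region had 84.6 RPKM in RelBko and 83.9 RPKM in WT, while a region upstream at -13509 bp from the TSS had 11.4 RPKM in RelBko and 23.4 RPKM in WT, a ratio of 0.488 (0.383 to 0.620). Its log2 ratio of -1.003 lay within 2-fold with a pseudocount of 1 RPKM (-0.97), with a median ratio of 1 (-0.95) and when scaled on regions without enrichment (-0.84).

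Of 30 dendritic cell maturation genes 2 were lower and none higher (median 0.04). The pair were Ido1, given above, and Slco5a1, a transporter-family gene, whose region upstream at -1214 bp from the TSS had 24.4 RPKM in RelBko and 54.3 RPKM in WT, a ratio of 0.449 (0.378 to 0.531). When scaled on regions without enrichment Slco5a1 lay within 2-fold (-0.98), so that 1 of the 30 was lower, and the list median was 0.205. The migration receptor gene Ccr7 had 85.1 RPKM in RelBko and 76.9 RPKM in WT. The costimulatory gene Cd86 had 75.1 RPKM in RelBko and 65 RPKM in WT, and the surface marker gene Cd83 had 122 RPKM in RelBko and 119 RPKM in WT. None of 20 LPS sensing genes (median 0.09), 25 lineage genes of myeloid and dendritic cells (-0.01), 22 survival and stress genes (0.07), 33 interferon genes (0.03) or 26 immediate early genes (-0.01) was called. Irf1 had 69.7 RPKM in RelBko and 69.2 RPKM in WT, the phosphatase gene Dusp2 had 134 RPKM in RelBko and 121 RPKM in WT, the survival gene Bcl2l1 had 115 RPKM in RelBko and 112 RPKM in WT, and the dendritic lineage factor Zbtb46 had 83.7 RPKM in RelBko and 76.8 RPKM in WT. The receptor gene Tlr2 had 83.0 RPKM in RelBko and 80.4 RPKM in WT.

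Pgk1 was the only called member of 23 housekeeping genes (median 0.09), and Actb had 69.9 RPKM in RelBko and 75.1 RPKM in WT. In 14 neutrophil genes 10 lay below 0 and none was called (median -0.25). Several with log2 ratios near the threshold were granule or lineage genes, among them Lcn2 with 6.13 RPKM in RelBko and 12.4 RPKM in WT and Mpo with 5.70 RPKM in RelBko and 11.7 RPKM in WT, chosen after their values were seen. One of 10 B cell genes, Igll1, and one of 15 T and NK cell genes, Lck, were lower, both under 5 RPKM, and the medians were 0.00 and -0.17. None of 5 erythroid and mast cell genes was called (median -0.29). Median log2 ratios also depend on signal level, which was low in these lists.

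**Figure D4:**
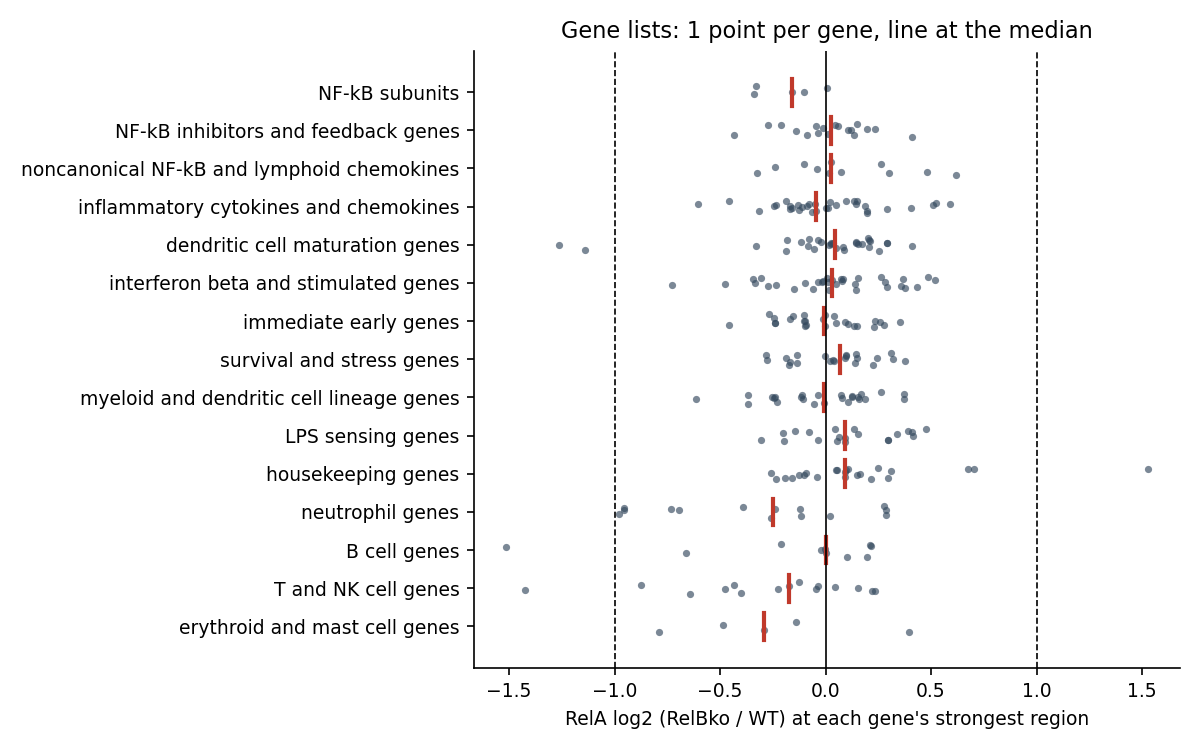
Log2 ratio of RelA signal (RelBko over WT) at the strongest region of each gene, 1 point per gene in 15 lists, with the list median as a red line and dashed lines at 2-fold. The 5 points beyond the dashed lines are Ido1, Slco5a1, Igll1 and Lck on the lower side and Pgk1 on the higher side.

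Neighbouring regions tended to differ in the same direction. For 16044 pairs of compared neighbours under 2 kb apart the log2 ratios correlated with r = 0.24, and r was 0.17 at 2 to 10 kb, 0.09 at 10 to 50 kb and 0.07 beyond. After a region lower in RelBko, the next one within 2 kb was also lower in 18.7% of cases (95 of 509), against 2.91% after a region within 2-fold. After a higher region the next was higher in 6.21% (10 of 161), against 0.976%. Neighbouring regions are not independent, and these values describe 1 pair of libraries.

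Runs of at least 3 successive compared regions with the same call, each under 50 kb from the next, numbered 45 for lower regions (160 regions) and 3 for higher ones (9 regions), by a rule set with the values known. The longest lay on chromosome 9, which held 7 of the 45. In introns of 4833428L15Rik (45282915 to 45331367) 7 regions summed to 39.9 RPKM in RelBko and 106 RPKM in WT. They were grouped because each was called lower, and the other 3 regions of the locus lay within 2-fold, with ratios of 0.653, 0.649 and 0.776. Its 2 strongest regions, 17.6 and 16.5 RPKM in RelBko and 47.3 and 40.1 RPKM in WT, carried 103 and 78.1 RPKM of RelB in WT at 1 h. At Nxpe2 (48090552 to 48147323) 7 weak regions summed to 10.9 RPKM in RelBko and 32.3 RPKM in WT. At Piwil4 (14510143 to 14534158) the log2 ratios of 6 regions ran from -1.56 to -1.04, the last within 2-fold under either scaling. The run at Cd180, a receptor that tunes LPS responses, held 4 regions with 18.6 RPKM summed in WT. The 3 higher runs lay at Crxos, Ptk2 and Adora1 with Mybph, with 42.3, 24.9 and 22.1 RPKM summed in RelBko and 10.6, 9.88 and 9.41 RPKM in WT.

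**Figure D5:**
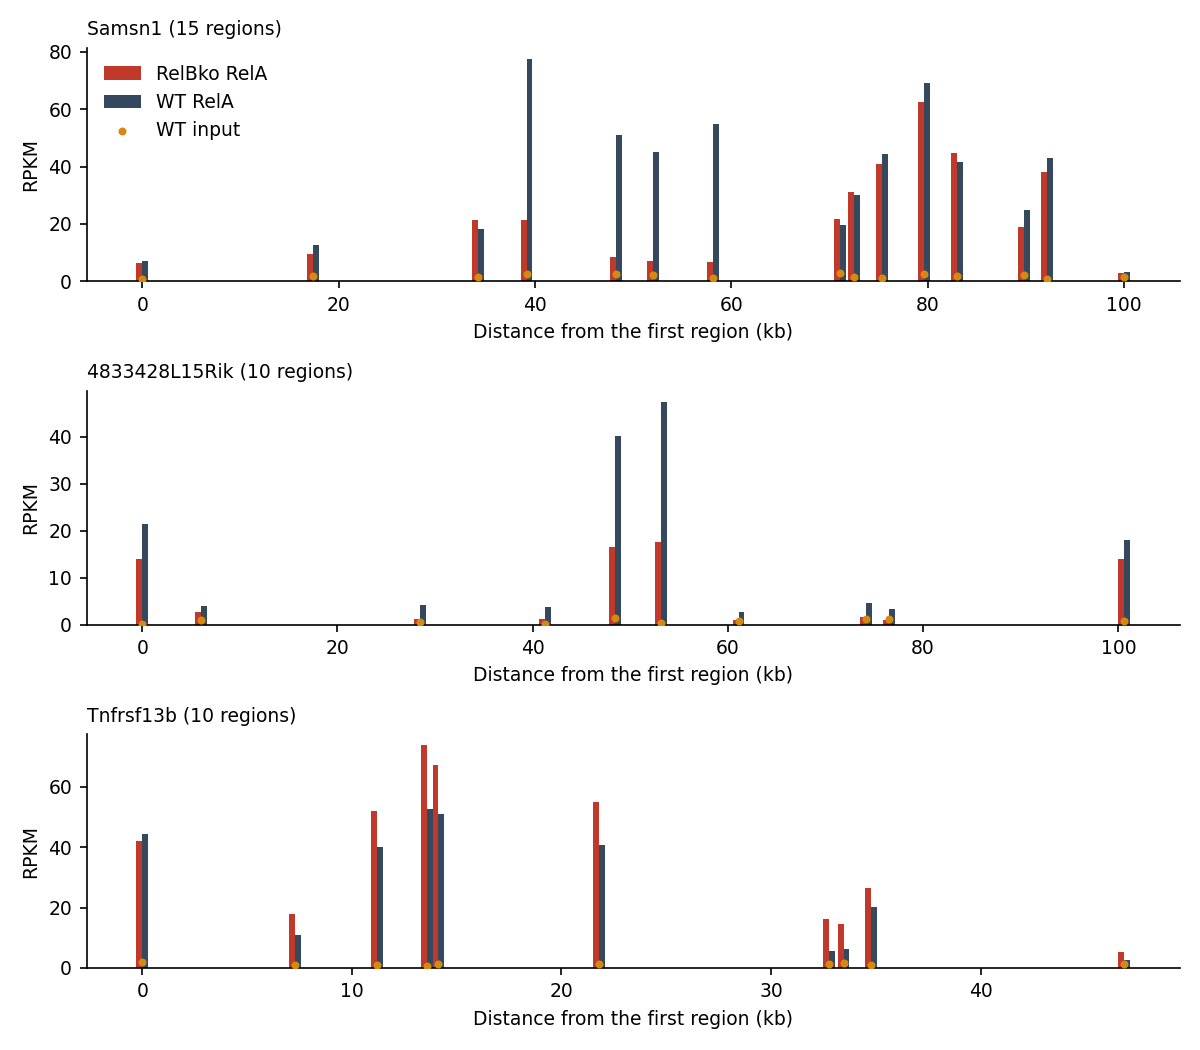
RelA signal in RPKM at every region assigned to Samsn1 (15 regions), 4833428L15Rik (10) and Tnfrsf13b (10), with RelBko in red left of WT in dark blue and the input as orange points, against the distance from the first region in kb. At Samsn1, 4 intron regions have 21.3 RPKM or less in RelBko, against 45.1 to 77.5 RPKM in WT, beside regions of like height in both libraries.

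The share called varied with how many other regions lay within 50 kb, but showed no such order at matched signal. Regions with no other region in that window were lower in 10.4% and those with 11 or more in 3.38%. At a mean of 10 to 20 RPKM the shares were 0 of 85 regions, 1.10% with 1 to 2 others, 1.16% with 3 to 5, 0.985% with 6 to 10 and 1.15% with 11 or more. The isolated regions were weaker, with medians of 2.81 RPKM in RelBko and 3.36 RPKM in WT. Around Relb, within 10 Mb of its promoter and at a mean of 5 RPKM or more, 4.19% of 453 regions were lower (2.7 to 6.46%) and 1.99% higher, against 1.41% and 0.572% on the rest of chromosome 7. The regions of largest fold named above at Opa3, Crxos, Dpf1, Meis3 and Igsf23 lay in this window, as did the higher run at Crxos. The cause of the larger shares there was not tested.

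Promoters with a kB motif were more strongly bound in both genotypes, and were called about as rarely as all matched promoters. Of 7611 genes with a promoter region within 250 bp of the TSS, 6065 were matched by symbol to a RefSeq promoter of 300 bases. The motif GGGNNNTTCC, searched on both strands with overlaps counted once per promoter, was in 9.22% of them, against 6.31% of the promoters of all 27025 genes. It was in 7.37% of promoters with a mean under 10 RPKM, 12.3% at 20 to 50 RPKM and 23.8% over 50 RPKM. Promoters with the motif had a median of 16.2 RPKM in RelBko and 14.6 RPKM in WT. The median log2 ratio was 0.05 with the motif and 0.12 without it. Of the 559 promoters with the motif 4 were lower and 1 higher, against 37 and 23 of all 6065. Promoters with a log2 ratio under -0.5 held it in 14.8% (34 of 230) and those over 0.5 in 5.36% (27 of 504).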

How the data were processed

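RelA ChIP-seq of RelBko and WT BMDCs at 1 h of LPS was compared, with WT input as background, 1 library each. The deposited RPKM values were calculated by the authors over 93611 regions, per the file headers. HISAT2, HOMER, bedtools and the build mm9 are named in the submitters' processing notes. The sources used here give neither their roles and versions nor how regions were selected. The treatment text also names a CpG oligonucleotide reagent, and the stimulus is called LPS as in the sample labels.

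RPKM multiplied by region length was a whole multiple of 1 read for 100% of values within 0.01 read, which gave reads and library totals. No value lay under 1 read, so a read may have been added to every count, and an alternative took it off. Reads without molecular identifiers are not independent, so intervals cover counting error only. Log2 ratios of RPKM used a pseudocount of 0.5 RPKM. Enrichment needed 2 RPKM and 2-fold over input, and calls 2-fold. Ratios have exact (Clopper-Pearson) 95% intervals and shares Wilson intervals. Calls were checked on simulated reads, only at regions with a mean of 20 RPKM or more and for changes larger than the threshold. The check does not cover weak regions, where most calls lay. No replicate test was possible.

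The 15 gene lists hold 304 genes, 1 matched through an older symbol in RefSeq GRCm38.p6. Named are the 3 members of highest mean signal per list, the 10 genes per direction with the largest log2 ratio among called regions within 100 kb with 10 RPKM or more in one library, regions of highest mean signal, and Relb, Rela and Nfkbia. Members and lists were chosen with earlier results of these data known. Python 3.11.15, numpy 2.4.6, pandas 2.3.3 and scipy 1.17.1 were used.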

Additional observations from a re-analysis of the deposited data

How the results depend on the processing

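Among compared regions the median log2 ratio was -0.0571 in the report, and lower regions outnumbered higher ones under every setting tried. Both numbers called stayed within 1.5 times with no filter on weak regions, a median ratio of 1, 1 read taken off and an interval that excludes 1, and 1 or both moved further under the other settings. With a pseudocount of 0.1 RPKM 1658 were higher and the median was -0.0618, and with 1 RPKM 2407 were lower, 591 higher and the median was -0.0503. With no filter on weak regions the median was -0.0693. With a stricter filter 1342 were lower and 387 higher, with a median of -0.0139 and a promoter share of 3.73% among the lower regions. A median ratio of 1 set the median to 0.0. Scaling on regions without enrichment gave 2546 lower, 2013 higher and a median of 0.10. With the input subtracted 7136 were lower and 2340 higher, with a median of -0.0648 and a promoter share of 6.88% among the higher regions. With 1 read taken off the median was -0.049. At a 1.5-fold threshold 12218 were lower and 5148 higher, with promoter shares of 3.45% and 9.83%. Chosen after seeing the data, the set without the 5 most frequent lengths gave 2362 lower, 456 higher and a median of -0.0458, and a mean of 5 RPKM or more gave 836 lower, 298 higher, a median of -0.00527 and promoter shares of 3.23% and 6.04%. In bins of WT RelB signal 1.85% of regions at 50 RPKM or more were lower, against 0.0% in bins of RelA, and with a window of 10 kb 7.52% of regions with no other region were lower, against 10.4% with 50 kb. The causes were not tested. The 20 genes with the largest log2 ratios stayed past 2-fold with the same sign under both pseudocounts, both scalings, input subtraction and 1 read taken off. They were chosen for the size of their ratios, and the scalings move log2 ratios by 0.06 and 0.16 only. Staying past 2-fold under the scalings was therefore fixed by the choice. With the called regions of list genes and strong regions added, 15 of 85 calls ended when scaled on regions without enrichment, 5 with a median ratio of 1, 5 with a pseudocount of 1 RPKM and none under the other settings, and those at Slco5a1, Ido2, Il6 and Piwil4 are given in the report. Of uncalled values at named regions 24 changed sign, and of list medians 9 left the counting interval of the median and 96 did not. Leaving out a replicate was not possible, and reads of weak regions limit the depth. No paired analysis was possible because each genotype had 1 RelA library.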

Other observations

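At the scale of whole loci the RelA signal was mostly alike. Among 1249 genes with 8 or more compared regions of a mean of 5 RPKM or more, a rule set after the values were seen, the median log2 ratio of a locus ran from -0.27 to 0.25 between the 5th and the 95th percentile. All regions lay below 0 at 5 of these genes and above 0 at 10. At Fscn1, which encodes the actin-bundling protein fascin of mature dendritic cells, the median of 9 regions was -0.48, with 164 RPKM in RelBko and 193 RPKM in WT. At Irf1, an interferon regulatory factor gene, 7 of 8 regions lay below 0, while its promoter region did not differ. On the other side, all 11 regions at Ptk2, the focal adhesion kinase gene, lay above 0, with 201 RPKM in RelBko and 153 RPKM in WT. At Tnfrsf8, which encodes CD30, the median of 13 regions was 0.53, and at Ccl3, a chemokine gene, 8 of 9 regions lay above 0 and summed to 263 RPKM in RelBko and 199 RPKM in WT.

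The AP-1 motif TGANTCA, searched in the same way as the kB motif, was in 7.04% of matched promoters and in 8.97% of all promoters in the table, and in 10.9% of those with a log2 ratio under -0.5. By chromosome the share of regions lower in RelBko ran from 4.11% on chromosome 11 to 5.81% on chromosome 9. In 3 groups of promoters by GC content the median log2 ratio was 0.09 in the lowest, 0.12 in the middle and 0.12 in the highest group.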
